A study of Mus musculus with 10 samples.

Results

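The Cyp2b genes of the mouse encode cytochrome P450 enzymes of the liver, and Nr1i3 encodes the constitutive androstane receptor (CAR), a nuclear receptor that switches on Cyp2b10. The 4 genes described here, Cyp2b9, Cyp2b10, Cyp2b13 and Nr1i3, were chosen by symbol from the 24537 gene symbols of the count table. They were picked because Cyp2b9 was known to be higher in the old livers of these data, so their levels by age are given as a description, without a test. All 4 were among the 13909 genes tested. Cyp2b19 and Cyp2b23, the other Cyp2b genes in the table, had 0 counts in each of the 10 livers, so the Cyp2b sum used below rests on Cyp2b9, Cyp2b10 and Cyp2b13.

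The study sequenced polyadenylated RNA from whole livers of male mice to ask how Cd44 in hepatocytes bears on interleukin 6 and STAT3 signalling and on T cells in old age. All mice received an adeno-associated virus of serotype 8 (AAV8) carrying the Staphylococcus aureus Cas9 (saCas9) under TBG, a hepatocyte promoter, and a guide RNA under U6. Young controls (n = 3) carried a Rosa26 guide, received virus at 7 months and were sampled at 9 months. Old controls (n = 3) carried the same Rosa26 guide, with virus at 23 months and sampling at 25 months. The old knockout group (n = 4) received a Cd44 guide at the same ages, g4 in replicates 1 and 2 and g2 in replicates 3 and 4. Virus and Cas9 are thus shared by every group, no liver without virus and no young knockout liver was analysed, and TBG limits Cas9 to hepatocytes while whole-liver RNA comes from all cell types. The labels do not state that replicates are separate animals, so the p-values measure only the spread between these samples, which may be technical.

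CAR resides in the cytoplasm of resting hepatocytes, held in a complex with heat shock protein 90, and moves to the nucleus when drugs such as phenobarbital are present. There it pairs with the retinoid X receptor (RXR) and raises transcription of enzymes, conjugating proteins and transporters that clear drugs, with Cyp2b10 as its textbook target in mice. Cyp2b9 and Cyp2b13 are known as genes that are higher in female than in male mouse liver, a difference set by the pattern of growth hormone release acting through STAT5b.

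In the GENCODE M21 annotation of GRCm38 the Cyp2b genes described here lie on the plus strand of chromosome 7. Cyp2b10 spans 25897620 to 25926624, Cyp2b13 spans 26061497 to 26096197 and Cyp2b9 spans 26173411 to 26210661. Each has 9 exons. Gaps of 134.9 kb and 77.2 kb separate Cyp2b10 from Cyp2b13 and Cyp2b13 from Cyp2b9, and pseudogenes of the family lie in between. Nr1i3 lies on the plus strand of chromosome 1, from 171213970 to 171220701.

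The sequences around the start sites are shown because those of Cyp2b9 and Cyp2b13 are nearly the same while that of Cyp2b10 is not. Whether this bears on their counts was not tested. Each sequence runs from 250 bases before to 50 bases after the start on the plus strand of GRCm38.p6, from RefSeq. The windows are chr7:26173159-26173458 for Cyp2b9, chr7:26061245-26061544 for Cyp2b13 and chr7:25897408-25897707 for Cyp2b10. Capitals mark the bases that differ between Cyp2b9 and Cyp2b13 in the first and second, and the 77 bases that differ from the aligned Cyp2b9 base or have none there in Cyp2b10.
Cyp2b9: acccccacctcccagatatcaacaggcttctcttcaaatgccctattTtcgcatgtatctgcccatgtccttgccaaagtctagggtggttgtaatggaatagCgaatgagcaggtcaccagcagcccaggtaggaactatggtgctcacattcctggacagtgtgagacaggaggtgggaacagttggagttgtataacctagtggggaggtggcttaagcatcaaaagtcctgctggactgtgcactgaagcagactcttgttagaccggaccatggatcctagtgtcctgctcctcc
Cyp2b13: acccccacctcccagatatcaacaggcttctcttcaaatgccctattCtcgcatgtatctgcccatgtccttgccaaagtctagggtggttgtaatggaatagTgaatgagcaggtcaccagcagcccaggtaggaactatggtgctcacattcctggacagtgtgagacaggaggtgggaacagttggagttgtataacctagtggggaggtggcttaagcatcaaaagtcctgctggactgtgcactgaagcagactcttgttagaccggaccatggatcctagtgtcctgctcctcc
Cyp2b10: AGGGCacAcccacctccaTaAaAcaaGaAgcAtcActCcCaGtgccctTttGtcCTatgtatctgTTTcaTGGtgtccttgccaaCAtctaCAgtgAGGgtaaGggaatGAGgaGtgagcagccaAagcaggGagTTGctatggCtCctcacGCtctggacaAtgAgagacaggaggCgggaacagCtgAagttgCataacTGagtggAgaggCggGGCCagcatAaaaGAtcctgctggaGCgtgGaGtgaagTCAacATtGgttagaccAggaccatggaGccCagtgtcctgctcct
Over these 300 bases Cyp2b9 and Cyp2b13 were 99.3% identical and Cyp2b9 and Cyp2b10 were 71.7% identical. The 2 substitutions, counted from 1 at the window's 5′ end with the Cyp2b9 base first, were T48C and C104T, which lie 203 and 147 bases before the start. A search of both strands of the windows of the 4 genes found none of 3 motifs. The STAT5 element TTCNNNGAA is in 8.3% of 32851 RefSeq promoter windows of this length, the direct repeat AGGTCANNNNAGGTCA bound by CAR and RXR in 0.0152% and TATAAA in 13.6%. The absence says only that these letters are not in these windows.

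The transcribed parts differ more, which is what lets reads of 75 bases tell the copies apart. The coding sequences of Cyp2b9 and Cyp2b13 differ at 107 of 1473 bases (92.7% identity), with a longest shared run of 113 bases, and Cyp2b9 and Cyp2b10 are 87.8% identical. A stretch of exon 7 shows how the copies can be told apart. It lies at chr7:26200820-26200894 in Cyp2b9 and chr7:26088332-26088406 in Cyp2b13 (GRCm38, plus strand, from the GENCODE M21 transcripts), and its 16 differing bases are in capitals.
Cyp2b9, exon 7: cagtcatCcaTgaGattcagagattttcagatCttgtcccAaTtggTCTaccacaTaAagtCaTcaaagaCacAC
Cyp2b13, exon 7: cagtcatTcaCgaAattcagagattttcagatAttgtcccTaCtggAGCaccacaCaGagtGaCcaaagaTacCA
Of the 1802 windows of 75 bases in the Cyp2b9 transcript, 93 (5.16%) also occur in Cyp2b13. For Cyp2b10 58 of 1842 (3.15%) are shared with any other gene's transcript. For Cyp2b13 it is 295 of 1801 (16.4%), of which 201 are shared with the pseudogene Gm45225, 93 with Cyp2b9 and 37 with Cyp2b10. How the authors' counting treated reads that match several genes is not given in the sources used here.

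Total counts lay between 15821198 and 21710228 per liver, so 3 counts, taken as the floor of detection, equal 0.131 to 0.198 CPM. CPM are counts scaled to library size, here with trimmed mean of M values (TMM) factors. Wilson intervals of shares and floors cover counting error only, while the intervals of log2 fold changes also include the spread between livers. Cd44, the targeted gene, had 10.1 to 16.6 CPM in young, 14.2 to 30 in old control and 13.1 to 29 in the libraries labelled knockout. Its log2 fold change between the last groups was −0.25 ± 0.30 (SE; edgeR's quasi-likelihood test, adjusted p = 0.896), so it does not separate them. Hepatocyte markers were abundant in every liver, 7 of 7 detected, with a summed 80100 to 121000 CPM. Old control replicate 2 stood apart with the highest Kupffer cell, T and NK cell and neutrophil markers (1240, 46.4 and 293 summed CPM, against at most 739, 22.3 and 22.8 elsewhere). Old control replicate 3 has a library name outside the run of the others, the labels give no batch, and values without single livers are given where they matter. The scaling itself bears on age: with total counts in place of TMM factors the median log2 fold change of all genes was 0.34 for old control and 0.35 for old knockout against young, in place of 0.04 and 0.03. The split of called genes then moved from 1967 higher and 1205 lower to 3872 and 354 for old control, and from 923 and 691 to 3332 and 253 for old knockout.

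Cyp2b9 was close to the floor in young livers and variable in old ones. The young control livers had 0.306, 0 and 0.127 CPM (5, 0 and 2 counts). The old control livers had 0.688, 11.4 and 23.8 CPM (14, 250 and 498 counts). In the libraries labelled knockout it had 11 and 31.4 CPM with g4 and 22.1 and 2.98 CPM with g2 (189, 719, 470 and 51 counts). Every old liver was above every young one, but old control replicate 1 was only just so, and the old livers themselves spanned 0.688 to 31.4 CPM. Group means were 0.144 ± 0.154 CPM (SD, n = 3) in young, 11.9 ± 11.5 (SD, n = 3) in old control and 16.9 ± 12.5 (SD, n = 4) in old knockout livers. The SD was thus nearly as large as the mean in each old group. The ratio of means was 82.8 for old control and 117 for old knockout against young (log2 fold changes 6.28 and 6.78), and it rests on 7 counts in the 3 young livers together.

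Cyp2b13, the near copy, followed at a much lower level. It had 0, 0.066 and 0 CPM in young livers (1 count in all), 0, 0.821 and 1.1 CPM in old control livers and 0.814, 1.88, 1.08 and 0.175 CPM in knockout livers. Old control replicate 1 was at 0 together with young livers, and knockout replicate 4, with 3 counts, was at the floor, so the groups overlapped. With the young livers set to the floor (mean 0.191 CPM), the ratio of mean Cyp2b13 levels was 3.36 for old control and 5.18 for old knockout livers. The floor limits only the young side of these ratios. They do not cover the spread between old livers, or Cyp2b9 reads that may be counted as Cyp2b13.

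Cyp2b10, the CAR target, was present in young and old livers alike. Young livers had 10, 3.89 and 4.62 CPM and old control livers 2.06, 4.92 and 2.58 CPM. Knockout livers had 7.5 and 2.62 CPM with g4 and 17 and 7 CPM with g2. All groups overlapped. The means were 6.18 ± 3.36 (SD, n = 3), 3.19 ± 1.52 (SD, n = 3) and 8.54 ± 6.08 CPM (SD, n = 4), and the young mean was raised by replicate 1. The log2 fold change was −0.95 for old control against young, −0.42 without young replicate 1, and 0.46 for old knockout against young, which turned to −0.13 without knockout replicate 3.

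Nr1i3, the receptor, was by far the most abundant of the 4. It had 99.1, 93.5 and 75.3 CPM in young, 186, 98.6 and 78 CPM in old control and 102, 160, 98.3 and 115 CPM in knockout livers. The groups overlapped, and old control replicate 1, the old liver with the least Cyp2b9, had the most Nr1i3. Means were 89.3 ± 12.4 (SD, n = 3), 121 ± 57.2 (SD, n = 3) and 119 ± 28.5 CPM (SD, n = 4). The log2 fold change for old control against young was 0.44 with all livers and −0.02 without old control replicate 1. For old knockout against young it was 0.41.

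**Figure D1:**
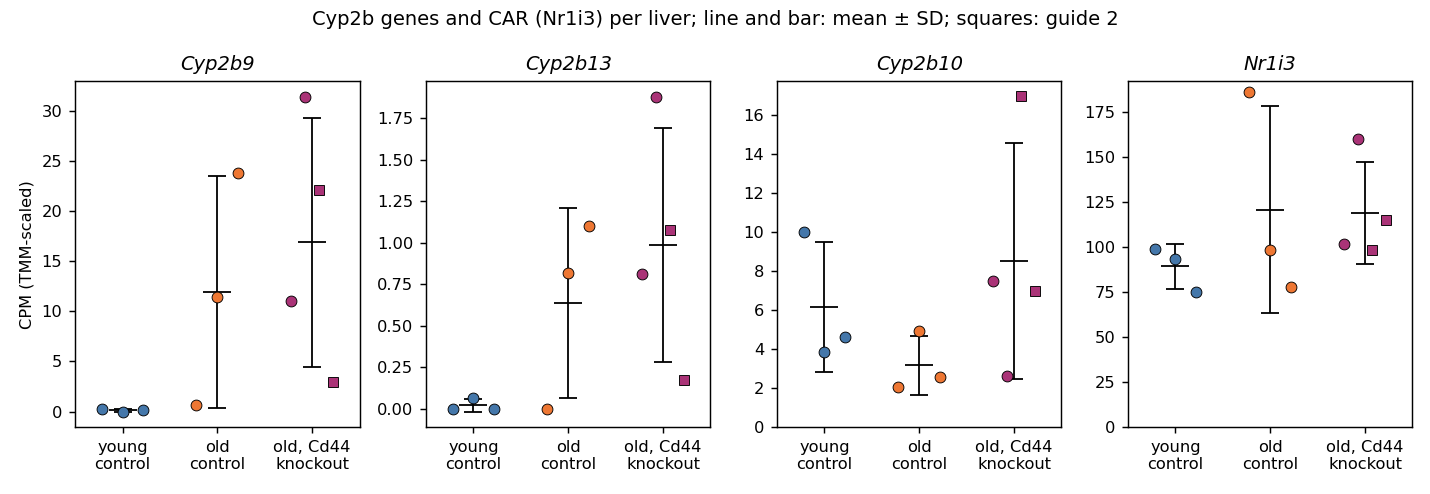
Level in CPM (vertical axes, TMM-scaled) of Cyp2b9, Cyp2b13, Cyp2b10 and Nr1i3 per liver and group; each point is a liver, squares are g2 livers, and the line and bar are the mean and SD. Cyp2b9 reaches 31.4 CPM in old livers against at most 0.306 in young ones, whereas the groups overlap for Cyp2b10 and Nr1i3.

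Per kb of transcript Nr1i3 led in each group, followed by Cyp2b10 in young livers and by Cyp2b9 on average in old ones. The length taken for Nr1i3 was 1414 bases, that of 1 chosen transcript, while its annotated exons together cover 4414 bases. A longer length would lower its values. Its counts may also hold reads of Tomm40l, a gene on the opposite strand described below. In young livers Nr1i3 stood at 63.2 ± 8.78 CPM per kb (SD, n = 3), Cyp2b10 at 3.22 ± 1.74, Cyp2b9 at 0.0769 ± 0.0819 and Cyp2b13 at 0.0117 ± 0.0203. In old control livers Nr1i3 stood at 85.6 ± 40.8 CPM per kb (SD, n = 3), Cyp2b9 at 6.38 ± 6.17, Cyp2b10 at 1.67 ± 0.794 and Cyp2b13 at 0.342 ± 0.305. In old knockout livers the levels were 84 ± 20 for Nr1i3, 8.99 ± 6.63 for Cyp2b9, 4.45 ± 3.16 for Cyp2b10 and 0.526 ± 0.375 CPM per kb for Cyp2b13 (SD, n = 4). Nr1i3 was above the Cyp2b genes in every liver, while Cyp2b9 and Cyp2b10 overlapped in both old groups and did not differ beyond their spread.

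Since reads of similar copies can be exchanged in counting, the Cyp2b counts were also summed. The sum was 10.3, 3.96 and 4.75 CPM in young, 2.75, 17.1 and 27.4 CPM in old control and 19.3, 35.9, 40.3 and 10.2 CPM in knockout livers. Old control replicate 1 had less Cyp2b RNA in all than any young liver, so old control and young livers overlapped, and knockout replicate 4 lay just under young replicate 1. The means were 6.35 ± 3.48 (SD, n = 3), 15.8 ± 12.4 (SD, n = 3) and 26.4 ± 14.1 CPM (SD, n = 4). The log2 fold change of the sum was 1.31 for old control and 2.05 for old knockout against young, far under those of Cyp2b9 alone. Cyp2b10 made up nearly all of the young sum.

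The make-up of the Cyp2b counts shifted from Cyp2b10 to Cyp2b9. Cyp2b9 gave 2.96% of the sum in young replicate 1 (95% Wilson interval 1.27 to 6.74%), 0 of 60 counts in replicate 2, which allows a share of up to 5% by the floor of 3 counts, and 2.67% in replicate 3. In old control livers it gave 25% (15.5 to 37.7%), 66.5% and 86.6%, and in knockout livers 56.9%, 87.5%, 55% and 29.3%. Even the lowest old liver, old control replicate 1, lay above the highest young one. Cyp2b10 gave 97% to 98.3% of the young sums, 75%, 28.7% and 9.39% in old control livers and 38.9%, 7.3%, 42.3% and 69% in knockout livers.

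**Figure D2:**
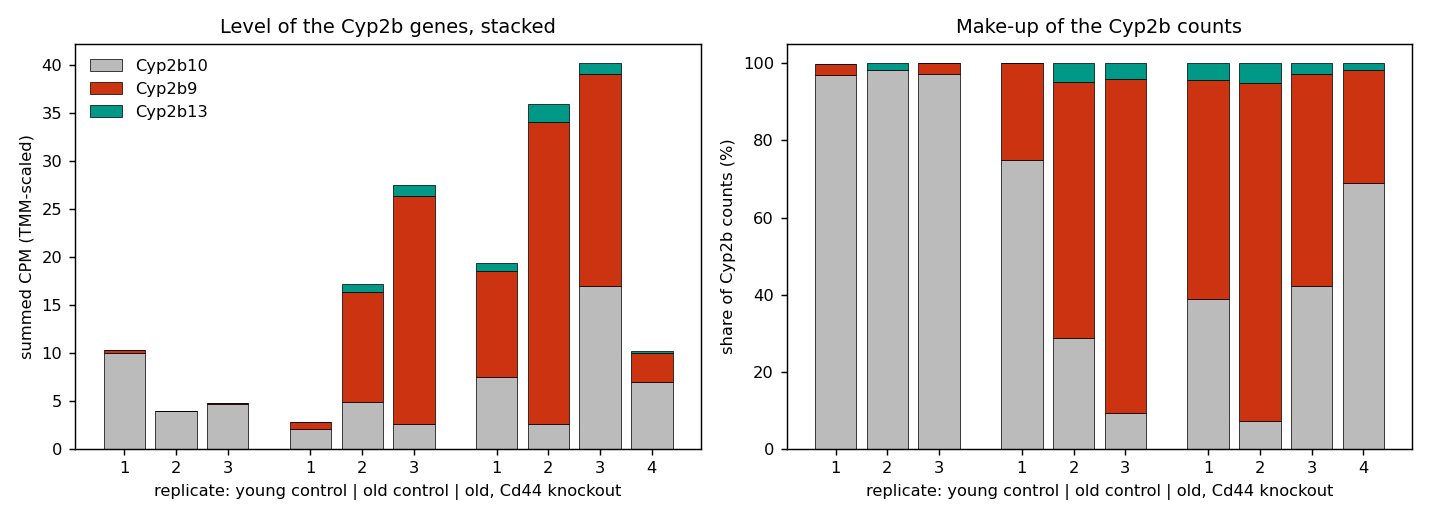
Left, summed level of the Cyp2b genes in CPM, stacked by gene; right, share of each gene in the Cyp2b counts in percent; 1 bar per liver, with young control bars first, then old control, then old knockout. Cyp2b9 makes up at most 2.96% of the counts in young livers and 25% to 87.5% in old ones.

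Cyp2b13 counts tracked Cyp2b9 counts in a nearly fixed proportion. Of the counts of both genes together, Cyp2b13 held 6.72% and 4.41% in old control replicates 2 and 3 and 6.9%, 5.64%, 4.67% and 5.56% in knockout replicates 1 to 4. In old control replicate 1 it was 0 of 14 counts, which allows a share of up to 21.4% by the same floor. The range of 4.41 to 6.9% lies around the 5.16% of Cyp2b9 windows that also match Cyp2b13. That percentage is of single windows, while the reads are paired, so it is not an expected share of reads. Whether the Cyp2b13 counts come from Cyp2b13 RNA or from Cyp2b9 reads that match both cannot be told apart in gene counts.

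Across the 7 old livers, log2 CPM of Cyp2b13 and Cyp2b9 had a Pearson r of 0.99 (exact permutation p = 0.000198, two-sided, 0.00356 after Benjamini-Hochberg adjustment over 18 relations) and a Spearman rho of 1 (exact permutation p = 0.000397, adjusted 0.00715). Without the 2 livers farthest from the median Cyp2b9 level r was 0.90. If the Cyp2b13 counts are Cyp2b9 reads that match both genes, this relation follows from the counting. Its p-values therefore cannot show that RNA of 2 genes changed together. Cyp2b9 and Cyp2b10 gave a small r that did not pass (r = 0.25, exact permutation p = 0.567, rho = 0.04, p = 0.963). Cyp2b9 and Nr1i3 had r = −0.55 (exact permutation p = 0.177, adjusted 0.375) and rho = −0.46 (p = 0.302), and the sign turned without the 2 farthest livers (r = 0.37). These relations pool control and knockout livers, since neither group alone has the 6 livers a correlation needs.

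Nr1i3 shares 4.7 kb with Tomm40l, a mitochondrial outer membrane protein gene on the opposite strand (chromosome 1, 171216011 to 171222514), looked at after the values were seen. Of the Nr1i3 windows of 75 bases, 37.5% also match the Tomm40l transcript. Tomm40l had 103, 108 and 73.4 CPM in young, 250, 121 and 57.5 CPM in old control and 109, 185, 116 and 145 CPM in knockout livers. Its high and low livers were those of Nr1i3, with r = 0.95 and rho = 0.89 across the 7 old livers, given as a description. Strand use is not given in the sources used here, so reads from the shared stretches cannot be told apart, while 838 of the 1340 Nr1i3 windows match no other gene's transcript.

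Libraries labelled knockout and old controls were then compared with edgeR's quasi-likelihood test, a contrast the choice of genes did not use. None of the 4 genes passed the threshold of an adjusted p under 0.05, and the share of all genes called was 0%, with 916 genes at an unadjusted p under 0.05 and 8 genes called by DESeq2. Cyp2b9 had a log2 fold change of 0.50 (95% interval −1.36 to 2.37, edgeR adjusted p = 0.923). Cyp2b13 had 0.64 (−1.19 to 2.48, adjusted p = 0.903) and Nr1i3 −0.02 (−0.62 to 0.58, adjusted p = 0.992). Changes of several fold in Cyp2b9 in either direction fall within its interval. The largest was Cyp2b10, with a log2 fold change of 1.42 (0.16 to 2.67, edgeR adjusted p = 0.744; unadjusted 0.0301). In 3 of 4 knockout livers it lay above all 3 old controls. Without knockout replicate 3 it was 0.83. The Cyp2b sum had 0.75 (−0.66 to 2.15, edgeR adjusted p = 0.839). The log2 fold change of Cyp2b9 was −0.05 without old control replicate 1 and 1.48 without old control replicate 3, and the smallest adjusted p of such edgeR fits was 0.546.

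Between the g4 and g2 livers, 2 of each, none of the 4 genes passed the edgeR test, where 0.0212% of genes were called. The log2 fold change of g4 against g2 was 0.75 for Cyp2b9 (95% interval −1.77 to 3.27), 1.07 for Cyp2b13 (−1.36 to 3.50), −1.27 for Cyp2b10 (−2.69 to 0.16) and 0.30 for Nr1i3 (−0.51 to 1.11), each with an edgeR adjusted p of 1. For the sum it was 0.13 (−1.77 to 2.03). Only 3 genes were called, all lower with g4, and 2 of them are neighbours of the Cyp2b genes on chromosome 7. Cyp2a4, a female-biased steroid hydroxylase, had 19.3 and 32.3 CPM with g4 and 293 and 200 CPM with g2 (log2 fold change −3.25 ± 0.36 SE, edgeR adjusted p = 0.0295). Cyp2a5, a coumarin hydroxylase that CAR activators raise, had 253 and 382 CPM with g4 and 1520 and 1420 CPM with g2 (−2.21 ± 0.26 SE, edgeR adjusted p = 0.0334). The g4 values lay with the 23.7 to 40.1 CPM of Cyp2a4 and the 401 to 460 CPM of Cyp2a5 in old control livers or below them. These copies are near-identical and counts may pass between them. The remaining gene, Spats2l, was named after its value was seen (1.4 to 1.8 CPM with g4, 9.42 to 9.98 with g2). Leaving out any 1 of the 4 livers left 0 genes called.

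The partners and regulators of CAR were examined next, as a list of 23 genes. By age, 1 was higher and 4 were lower in old controls at an edgeR adjusted p under 0.05, where 14.1% of all genes were called higher and 8.66% lower (22.8% in all), with a median log2 fold change of −0.19 against 0.04 over all genes. With total counts in place of TMM factors the split was 4 higher and 3 lower, with a median of 0.12 against 0.34. The heat shock proteins that hold CAR in the cytoplasm fell, Hsp90aa1 by 1.72 ± 0.41 (SE) and Hsp90ab1 by 1.02 ± 0.26 on the log2 scale. Hnf4a, the hepatocyte factor that binds many P450 promoters, fell by 0.96 ± 0.22, from 1070 to 1190 CPM in young to 437, 475 and 842 CPM in old control livers. Med1, a coactivator subunit, fell by 0.42 ± 0.13, and Ppargc1a, a coactivator raised by fasting, rose by 0.95 ± 0.26. The partner Rxra had −0.32 ± 0.24 (edgeR adjusted p = 0.351) and the related xenobiotic receptor Nr1i2 −0.20 ± 0.15 (edgeR adjusted p = 0.357), neither past the threshold. The count of lower genes was 0 without young replicate 2 or old control replicate 2, 1 without young replicate 3 and 9 without old control replicate 3. In old knockout against young livers, which share the young livers with the age comparison, 11.6% of all genes were called, 6.64% higher and 4.97% lower. Of the 23 genes, Hnf4a (−0.94), Hsp90ab1 (−0.96) and Egfr (−1.62), whose signalling keeps CAR inactive, were lower and the RXR gene Rxrg (1.17) was higher. With total counts 5 were higher and 3 lower. The 3 lower calls became 0 without any single young liver or without any of knockout replicates 2, 3 and 4.

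Known CAR-induced genes other than the Cyp2b genes did not rise with age as a list. In old controls against young, 14.1% of all genes were called higher and 8.66% lower, with a median log2 fold change of 0.04. Of 32 CAR-induced genes tested, 1 was higher and 6 were lower (edgeR adjusted p under 0.05), with a median of −0.32. With total counts in place of TMM factors this split reversed to 3 higher and 2 lower, where 3872 of all genes were higher and 354 lower. The list's median was then −0.03, still under the 0.34 of all genes. The higher one, Slco1a4, an uptake transporter, had 6.21 to 30.5 CPM in young and 44.4 to 46.5 CPM in old control livers (1.54 ± 0.43 SE). The lower ones included the glutathione transferase Gstm1 (−1.12 ± 0.36), the monooxygenase Fmo5 (−0.87 ± 0.18), the P450 gene Cyp2c29 (−0.87 ± 0.28), the aldehyde dehydrogenase Aldh1a1 (−0.78 ± 0.19) and the epoxide hydrolase Ephx1 (−0.68 ± 0.18). Other well-known targets did not pass: Cyp3a11 had −0.45 ± 0.20 (edgeR adjusted p = 0.122), Cyp2c55 −0.09 ± 0.34 (0.869) and the P450 reductase Por −0.19 ± 0.22 (0.558). The count of lower genes moved from 0 without young replicate 2 to 14 without old control replicate 3, and was 1 without old control replicate 2 and 3 without young replicate 1. Higher calls numbered 0 without young replicate 2 or 3 or old control replicate 2, and 2 without young replicate 1. In old knockout against young, 0 were higher and 3 lower, Cyp2c29 (−1.28), Fmo5 (−0.71) and Cyp1a2 (−0.52), where 6.64% of all genes were higher and 4.97% lower. With total counts 3 were higher and 1 lower, where 3332 of all genes were higher and 253 lower. Without young replicate 1, 1 was higher. The count of 3 lower genes was 0 without any single young liver or knockout replicate 4, and 1 without knockout replicate 2 or 3. Of 7 CAR-repressed genes, 1 was lower in old control and in old knockout livers, where 8.66% and 4.97% of all genes were lower. It was Car3, a carbonic anhydrase (−1.14 and −0.67). With total counts 2 of the 7 were higher and 0 lower in old knockout livers. Between guides, 27 of the 32 CAR-induced genes had negative log2 fold changes of g4 against g2. Their median was −0.35 against 0 over all genes. Only 1 was called, where 0.0212% of all genes were. With 2 livers per guide, the cause was not tested.

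Sex-biased liver genes were listed because Cyp2b9 and Cyp2b13 belong to the female-biased class. That list was drawn with results of these data known, and Mup7, Mup12 and Mup17 were known to be lower, so its direction is not independent evidence. In old control against young livers 8.66% of all genes were called lower, with a median log2 fold change of 0.04. Of 23 male-biased genes tested, 14 were lower and 0 higher there (edgeR adjusted p under 0.05), with a median of −1.17 and all 23 values negative. With total counts 11 were lower and 0 higher, with a median of −0.88 and 22 values negative. Of all genes 354 were then lower, with a median of 0.34. Mup17, a urinary pheromone carrier, fell by 4.93 ± 0.82 (SE) on the log2 scale, Mup7 by 3.86 ± 0.85, the selenium-binding protein Selenbp2 by 2.58 ± 0.66 and the fatty acid hydroxylase Cyp4a12b by 2.51 ± 0.36. Mup7 went from 2860, 4370 and 4850 CPM in young to 525, 91.7 and 216 CPM in old control and 200, 40.9, 46.3 and 319 CPM in knockout livers. Without the Mup genes, whose copies are near-identical, 9 of 18 were lower, with a median of −1.01. In old knockout against young, 14 of 23 were lower (median −1.44), among them Serpina1e (−2.10) and Elovl3 (−1.82), and 10 of 18 without the Mup genes. Of all genes 4.97% were lower there, with a median of 0.03. The age count was 5 without young replicate 2 and 6 without old control replicate 2, and the knockout count was 4 without young replicate 2, 6 without young replicate 3 and 9 without young replicate 1 or knockout replicate 2 or 3.

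Leaving the Cyp2b genes out, 3 of 18 female-biased genes tested were higher and 0 lower in old control against young livers (edgeR adjusted p under 0.05), a share near the 14.1% of all genes called higher, with a median log2 fold change of −0.05. With total counts 5 were higher, where 3872 of all 13909 genes were, and the median was 0.26, under the 0.34 of all genes. The 3 were Abcd2, a peroxisomal transporter (2.10 ± 0.36 SE), Atp6v0d2, a proton pump subunit (1.79 ± 0.43), and Hao2, a hydroxy acid oxidase (1.61 ± 0.40). Abcd2 had 3.43 to 9.91 CPM in young, 17.1 to 31.8 CPM in old control and 16.2 to 23 CPM in knockout livers, with no overlap of young and old. Hao2 (2.64 ± 0.38) and Abcd2 (1.77 ± 0.34) were higher in old knockout livers as well. Cyp2a4 had −0.03 ± 0.78 by age (edgeR adjusted p = 0.983). Cux2, a repressor high in female liver, was below the filter for the age comparison, with 0.066 to 0.317 CPM in young, 0.477 to 0.59 in old control and 0.349 to 0.471 in knockout livers. The count of 3 was 1 without young replicate 2 or old control replicate 2, and the knockout count of 2 was 1 without young replicate 2 or 3.

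Of 14 genes of growth hormone signalling tested, 1 was called by age, where 22.8% of all genes were. Srd5a1, a steroid reductase, was lower in old control livers (−0.73) and the median log2 fold change was −0.08. With total counts 4 were higher and 1 lower, where 4226 of all 13909 genes were called, with a median of 0.22. Stat5b, the transducer of growth hormone pulses, had 0.27 ± 0.13 (SE, edgeR adjusted p = 0.156) and Bcl6, a repressor counted in the male-biased list, −0.73 ± 0.67 (edgeR adjusted p = 0.451). In knockout against old control livers edgeR called 0 genes in any of these lists, and DESeq2 called 1 male-biased gene.

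**Figure D3:**
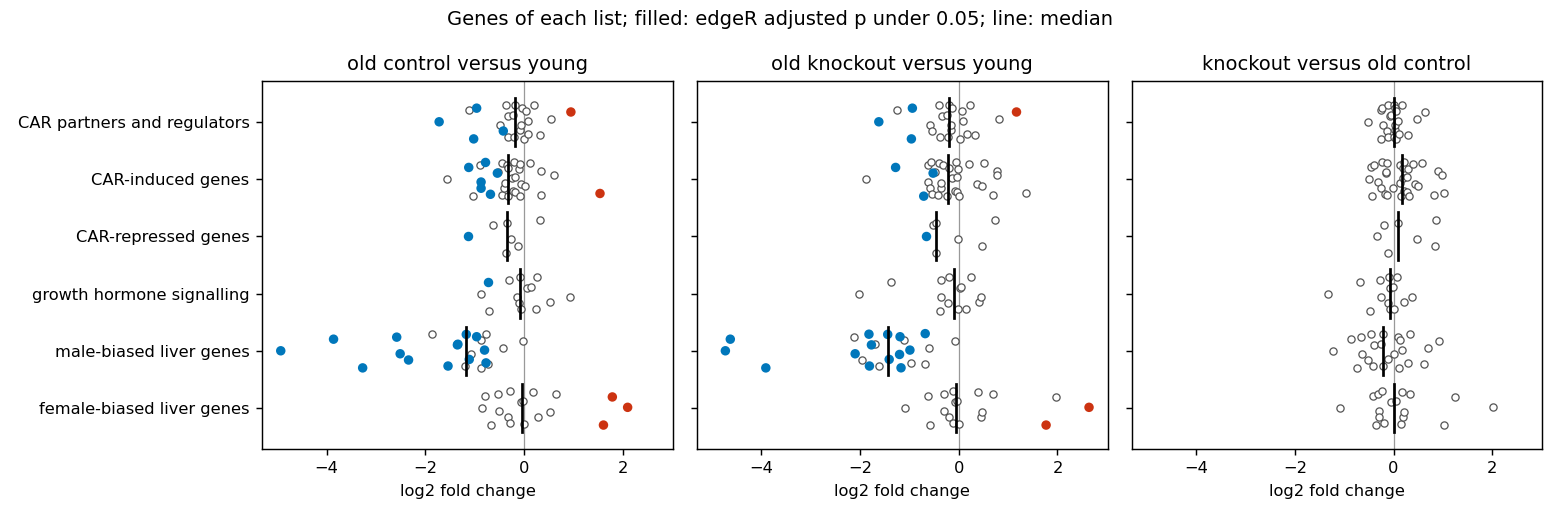
Log2 fold change (horizontal axes) of each tested gene in 6 lists for old control against young, old knockout against young and knockout against old control; filled points passed the edgeR test (red higher, blue lower) and the black line is the list's median. The male-biased genes lie at a median of −1.17 and −1.44 against young livers, while 0 points are filled in the comparison of the old groups.

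Cyp2b9 was then set beside these lists liver by liver. The mean log2 CPM of the male-biased list was 7.05, 6.29 and 6.82 in old control and 6.83, 6.10, 6.21 and 7.05 in knockout livers, against 8.19, 8.61 and 8.37 in young livers. With Cyp2b9 it had r = −0.74 (exact permutation p = 0.054, adjusted 0.324) and rho = −0.86 (p = 0.0238, adjusted 0.143) over the 7 old livers. Neither passed after adjustment, and r was −0.39 without the 2 farthest livers. With each old liver left out in turn, 7 fits, r lay between −0.87 and −0.67. Only 1 of these fits passed, that without old control replicate 3 (r = −0.87, adjusted exact permutation p = 0.0167). The growth hormone signalling list was higher where Cyp2b9 was higher in rank (rho = 0.96, exact permutation p = 0.00278, adjusted 0.025), with r = 0.78 (p = 0.0403, adjusted 0.324) and 0.60 without the 2 farthest livers. The CAR-induced list had r = 0.39 (exact permutation p = 0.408) with Cyp2b9 and r = −0.58 (p = 0.19) with Nr1i3.

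**Figure D4:**
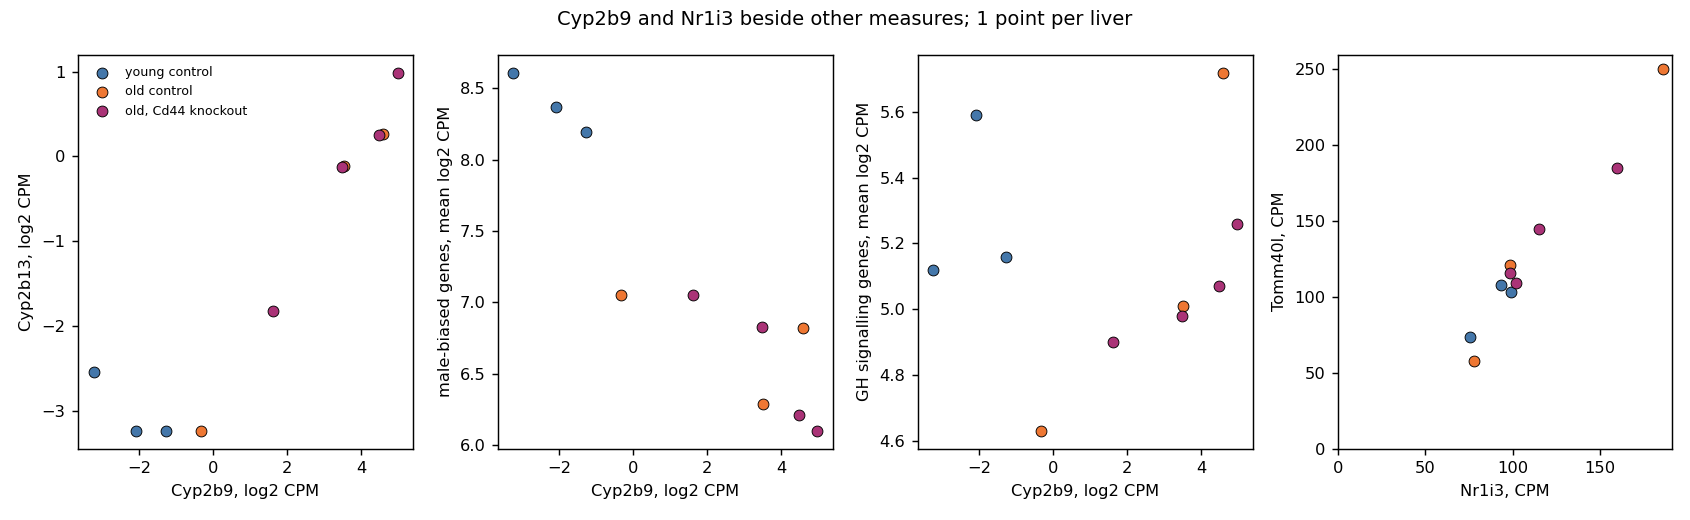
Each point is a liver, coloured by group: log2 CPM of Cyp2b13, mean log2 CPM of the male-biased list and of the growth hormone (GH) signalling list against log2 CPM of Cyp2b9, and CPM of Tomm40l against CPM of Nr1i3. Counts of Cyp2b13 rise with those of Cyp2b9 (r = 0.99 over the 7 old livers), and counts of Tomm40l with those of Nr1i3 (r = 0.95). In both pairs the transcripts share windows of read length, so the counts may not be independent.

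The genes most like Cyp2b9 over the 7 old livers, by Pearson r of log2 CPM among 12831 genes with at least 1 CPM on average, were Zfp418, Nipa2, Chrna2, Trmt11, Syap1, Tmem170b, 2310057M21Rik and Gcsh, with r from 0.94 to 0.96. In all 34 genes had r over 0.9. Their own levels moved little: Nipa2 ranged from 23.4 to 31.7 CPM and Gcsh from 76 to 88.8 CPM. None of the 8 stayed among the 8 most alike when all 10 livers were used, and 0 to 5 did when a liver was left out. For Nr1i3 the most alike were Tnks2, Zfp26, Zfp428, Nol3 and Rnpc3 (r 0.98 to 1, 283 genes over 0.9), and for Cyp2b10 Psma5, Slc25a5, Glrx3, Tpi1 and Gpt2 (r 0.96 to 0.98, 27 genes over 0.9). Points in these correlations share library depth and scaling.

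Other cell types moved with age too. In bulk RNA fewer cells of a type and less RNA per cell cannot be told apart. Hepatocyte markers summed to 92800 to 121000 CPM in young, 80100 to 102000 in old control and 85400 to 88400 in knockout livers, overlapping between young and old controls. Summed Kupffer and macrophage markers (9 of 9 detected) were 183 to 240 CPM in young, 349 to 1240 in old control and 287 to 553 in knockout livers. Endothelial markers (7 of 7) summed to 147 to 207, 302 to 331 and 205 to 249 CPM. Their part in the Cyp2b9 difference was not tested. The Kupffer and macrophage sum was 349, 1240 and 739 CPM in old control and 349, 553, 363 and 287 CPM in knockout replicates in order. Its order in knockout livers was that of Cyp2b9, as was that of the stellate and fibroblast sum (252, 287, 276 and 244 CPM). Among old controls replicate 1 was lowest in the Kupffer and macrophage sum and in Cyp2b9. Replicate 2 had the highest such sum and replicate 3 the most Cyp2b9. The stellate and fibroblast sum was 327, 442 and 294 CPM in old controls, lowest where Cyp2b9 was highest. These orders were not tested.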

How the data were processed

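Polyadenylated RNA of 10 whole livers was sequenced as paired reads of 75 bases, per the labels' protocols. The authors deposited 1 table of raw counts per gene symbol, without normalization. The submitters' processing notes list FastQC 0.11.8, Trim Galore 0.4.4, STAR 2.5.3a, HOMER and the mm10 build without roles, while the annotation, the counting settings and the use of strand are not given in the sources used here.

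Counts were tested with edgeR 4.0.16 in R 4.3.3 (quasi-likelihood test, TMM factors, filterByExpr with a minimum count of 10 and a minimum total of 15, 1 coefficient per group over all 10 livers, and 1 per guide for the guide comparison, where 14153 genes were tested), with Benjamini-Hochberg adjustment over all genes tested and a threshold of 0.05. Log2 CPM had a prior count of 2. Values of genes below the filter used the same scaling. No pair of replicates was alike within counting noise (smallest chi-square per degree of freedom 21.7). Sharing of windows and identities were computed from GENCODE M21 transcripts and RefSeq promoters (GRCm38.p6) with Python 3.11.15 and Biopython 1.88, and the edgeR test, the likeness ranking and the window search were tested on simulated data. Alternatives were DESeq2 1.42.0, RLE size factors, no filter, only the groups compared, summed Cyp2b counts and each liver left out, and, chosen after seeing the data, total counts without TMM factors and lists without Mup genes.

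The members, the gene lists and the tests were chosen with earlier results of these data known. Named are the members, Cyp2b19, Cyp2b23, Cd44, 11 genes of known role beside them, at most 5 genes per list and comparison with the largest absolute log2 fold change at an adjusted p under 0.05, and the genes most alike over the old livers (8 for Cyp2b9, 5 each for Nr1i3 and Cyp2b10). The list symbols Hnf6, Tf and Trbc2 matched no symbol of the table.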

Additional observations from a re-analysis of the deposited data

Results flagged for a closer look

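In the old knockout group replicate 1, a g4 liver, stood apart from the other 3 in CAR partners. Hsp90aa1 had 344 CPM there against 118 to 139 in the others (gap over range 0.907), Egfr 270 against 159 to 175 (0.857), and the summed CAR partners and regulators 3830 against 2980 to 3050 (0.926). These 3 came from 58 measures tested, of which about 2.9 would pass by chance, since chance marks about 1 in 20 groups. None of the Cyp2b genes or Nr1i3 was among them.

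The livers of the 2 guides differed in 2 neighbours of the Cyp2b genes by edgeR's quasi-likelihood test, with log2 fold changes of g4 against g2 of −2.21 for Cyp2a5 and −3.25 for Cyp2a4.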

How the results depend on the processing

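No paired analysis was possible because no shared replicate number in the labels ties a liver of 1 group to a liver of another. The 4 genes kept their direction in each comparison with RLE size factors, no filter, only the groups compared, DESeq2 and total counts, and none passed the threshold in the tested ones. Cyp2b13 had no age value with only the groups compared, where it fell below the filter. With summed Cyp2b counts the log2 fold change of Cyp2b9, Cyp2b10 and Cyp2b13 became 1.31 for old control and 2.05 for old knockout against young, which turns the sign of Cyp2b10 in the first, and that of g4 against g2 for Cyp2b10 turned to 0.13. In all, 182 of 222 values were rated the same under alternatives other than leaving out a liver. Counts of genes were so rated when equal or within a set ratio of the main count. Tested fold changes and relations had to keep their direction and side of the threshold. Untested fold changes had to move by less than the gene's spread within groups. What the low depth limits is Cyp2b9 and Cyp2b13 in young livers, which rest on 7 counts and 1 count. The causes of the changes below were not tested.

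With only the groups compared, 1192 genes were called by age, with 2 CAR partners lower, 1 CAR-induced gene lower and 0 higher. For old knockout against young it gave 4223 genes, 8 CAR partners lower, 10 CAR-induced genes lower and 1 higher, and between guides 36 genes, 4 of them CAR-induced. DESeq2 gave 2 CAR-induced genes higher by age, and 8 genes with 1 male-biased one for knockout against old control. For old knockout against young DESeq2 gave 2803 genes, 5 CAR partners lower, 5 CAR-induced genes lower and 1 higher, and between guides 74 genes, 5 of them CAR-induced and 1 male-biased. Without the filter 10 genes were called between guides, and 1 CAR-induced gene was higher in old knockout livers. Total counts, chosen after seeing the data, gave 4226 genes by age, 2 CAR-induced genes lower and 3 higher and 5 female-biased genes higher, and 3585 genes, 1 CAR-induced gene lower, 3 higher and 4 female-biased genes higher in old knockout against young. Between guides they gave 0 CAR-induced genes. Without Mup genes, also added later, 9 male-biased genes were lower by age. Over all 10 livers 0 of the 8 genes most like Cyp2b9 remained, and r of Cyp2b9 and the male-biased list was −0.94, a value that includes the age difference for which Cyp2b9 was picked and so is given with no test.

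Leaving out each liver in turn gave 396 to 5327 genes by age, 0 to 9 CAR partners lower, 0 to 14 CAR-induced genes lower and 0 to 2 higher, 5 to 15 male-biased genes lower and 1 to 4 female-biased genes higher. The log2 fold change lay between 3.93 and 6.65 for Cyp2b13, 5.30 and 7.39 for Cyp2b9, −1.42 and −0.42 for Cyp2b10 and −0.02 and 0.67 for Nr1i3. For old knockout against young it gave 56 to 1652 genes, 0 to 4 CAR partners lower, 0 to 2 CAR-induced genes lower and 0 to 1 higher, 4 to 14 male-biased genes lower and 1 to 3 female-biased genes higher. There Cyp2b13 lay between 4.66 and 7.29, Cyp2b9 between 6.24 and 7.90, Cyp2b10 between −0.13 and 1 and Nr1i3 between 0.24 and 0.49. For knockout against old control it gave 0 to 3 genes, −0.05 to 1.48 for Cyp2b9 and −0.26 to 0.43 for Nr1i3, which turned sign without old control replicate 1 or knockout replicate 1 or 3. Between guides, with a lone liver assumed to vary like the other groups, it gave 0 genes and 0 CAR-induced or female-biased ones, −0.20 to 2.83 for Cyp2b9, −0.06 to 0.59 for Nr1i3 and −0.54 to 1.44 for the Cyp2b sum. Of the 8 genes most like Cyp2b9, 0 to 5 remained. The r of Cyp2b9 lay between −0.87 and −0.67 with the male-biased list and between 0.63 and 0.96 with the growth hormone list.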

Other observations

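Of 7 Cyp2 genes tested that flank the Cyp2b genes on chromosome 7, 1 was called by age with edgeR, where 22.8% of all genes were. Of the 7 log2 fold changes, 5 were negative and 2 positive. The called gene was Cyp2f2, a P450 gene best known from lung club cells and periportal hepatocytes. It had 2090 CPM on average in young and 953 CPM in old control livers (log2 fold change −1.13 ± 0.34 SE, edgeR adjusted p = 0.035), the opposite sign to Cyp2b9. In old knockout against young livers 0 of the 7 were called, where 11.6% of all genes were. The 8 neighbours in the table summed to 3030 to 3850 CPM in young, 1400 to 2300 CPM in old control and 1450 to 4060 CPM in knockout livers, so knockout livers overlapped both other groups.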
